A study of Mus musculus with 24 samples.

Results

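The peroxisome proliferator-activated receptors (PPARs), the retinoid X receptors (RXRs), the retinoic acid receptors (RARs) and the retinoic acid carrier Crabp2 were followed in 24 mouse bladder tumors from 8 transplantable lines. The set held 9 genes of the 53465 in the count table, Pparg, Ppara, Ppard, Rxra, Rxrb, Rara, Rarb, Rarg and Crabp2, and it was chosen by gene name. Rxrg, the remaining RXR, and Fabp5, a further carrier of retinoic acid, were measured beside them. All 9 genes were found in the table and passed the filter on low counts in each comparison, except Ppara in the comparisons of BURP-16SR with BURP-19NE and of the sexes.

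The BURP lines came from bladder tumors of C57BL/6NTac mice given 0.1% N-butyl-N-(4-hydroxybutyl)-nitrosamine (BBN), a bladder carcinogen, in their water from 8 weeks of age and for at most 36 weeks. Donor tumors were passaged under the skin of hosts of the same strain and sex with an intact immune system. None of the lines carries an engineered allele, and the age of the hosts is not given in the sources used here. RNA of 3 tumors per line was sequenced, and normal bladder was not analysed here. Of the 6 basal/squamous (Ba/Sq) lines, with 18 tumors in all, the donors of BURP-12BaSq, BURP-17BaSq and BURP-18BaSq were male, and those of BURP-21BaSq, BURP-24BaSq and BURP-25BaSq were female. BURP-19NE, assigned by the study to a neuroendocrine-like class, and BURP-16SR, assigned to a stroma-rich class with sarcomatoid pathology, both came from male mice. In the study, 1 of the 3 BURP-16SR replicates correlated highly with the neuroendocrine-like class and the others with the stroma-rich class. By the names of the lines, each of these classes is 1 line from 1 donor animal, so that class and line cannot be told apart. P-values measure the spread between tumors, and tumors of a line share their donor.

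Total counts ran from 9295710 to 25370300 per tumor (rounded to 6 digits), and 3 counts, taken as the smallest level a library could show, corresponded to between 0.11 and 1.28 CPM, the count scaled to the size of the library. These floors cover counting error only. The highest floor belonged to tumor C102-M30 of BURP-25BaSq, in which 61.9% of the counts came from the ribosomal RNA gene CT010467.1. In BURP-25BaSq, the library labelled C102-M1 correlated more closely with the BURP-21BaSq tumors (Pearson's r across 21383 genes of 0.965 to 0.974) than with the other tumors of its own line (0.881 and 0.904), and the main values of BURP-25BaSq are given with and without it. The basal keratin Krt5 averaged 4117 CPM in Ba/Sq tumors, 0.0141 CPM in BURP-19NE and 0.114 CPM in BURP-16SR. Among neuroendocrine genes, picked after other results had been seen, Syp averaged 0.424 CPM in BURP-19NE and 0.425 CPM in Ba/Sq tumors, and no count of Insm1 or Neurod1 was found in BURP-19NE. By antibody staining, the study found synaptophysin, the protein of Syp, high in BURP-19NE and in BURP-16SR. It counted this for the class of BURP-19NE, besides its RNA classifier. Protein was not measured in the counts used here. BURP-19NE is used here as the name of a line.

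PPARs, RXRs and RARs are nuclear receptors, transcription factors that a small lipophilic molecule switches on. PPARs bind fatty acids and their derivatives, RARs bind retinoic acid made from vitamin A, and both work as heterodimers with an RXR. In normal urothelium, PPAR gamma and retinoic acid drive the differentiation of luminal cells, and a lack of vitamin A turns the bladder lining squamous. CRABP2 hands retinoic acid to the RARs in the nucleus, whereas FABP5 can carry it to PPAR delta.

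Within each family, 1 gene supplied most of the RNA in Ba/Sq tumors when levels were divided by exon length (CPM per kb), which allows genes to be compared. Ppard, the broadly expressed PPAR, made up 82.0% ± 18.4 (SD, n = 18) of the summed PPAR level, Rxra 71.8% ± 4.06 of the RXR level and Rarg, the RAR of stratified epithelia, 76.3% ± 8.96 of the RAR level. The make-up of the RXR and RAR families was different in the remaining lines. In BURP-19NE, Rxra supplied 46.7% ± 2.61 (n = 3) and Rxrb 52.1% ± 3.88 of the RXR level, and Rarg supplied 59.8% ± 3.35 of the RAR level. In BURP-16SR, Rara took the place of the leading RAR with 58.3% ± 1.94 of the summed level, against 40.9% ± 1.58 for Rarg. Rxrg, the RXR of muscle and neural tissue, supplied 12.7% ± 2.54 of the RXR level in BURP-16SR and 3.82% ± 2.33 in BURP-18BaSq, and at most 2.7% in any tumor of the other lines. These shares are given as a description, with no test.

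**Figure D1:**
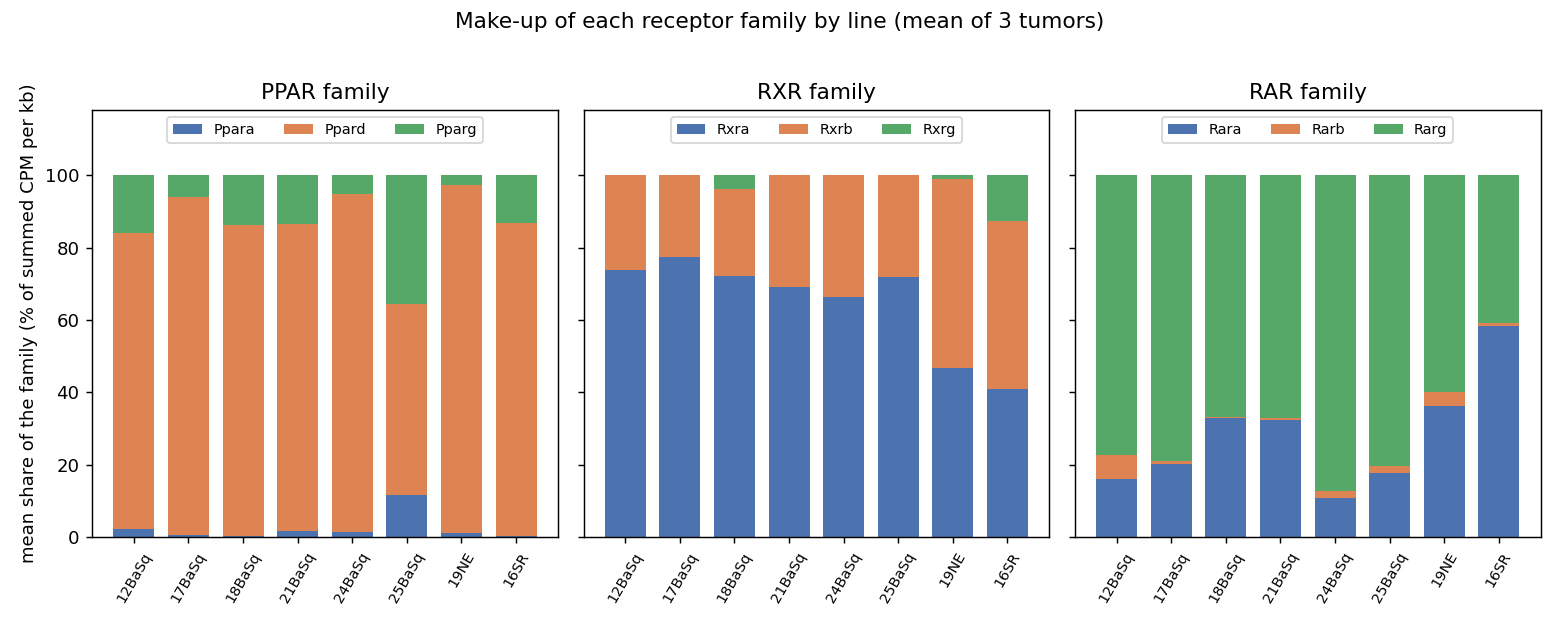
Stacked bars give the mean share of each gene in the summed level of its family (% of CPM per kb, 3 tumors per line) for PPARs, RXRs and RARs. Rxra supplies 71.8% of the RXR level over Ba/Sq tumors, 46.7% in BURP-19NE and 40.9% in BURP-16SR, and Rara reaches 58.3% of the RAR level in BURP-16SR.

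The totals of the families are given as a description as well, with no test. The summed RXR level averaged 32.2 ± 8.12 CPM per kb in Ba/Sq tumors, 13.4 ± 0.498 in BURP-19NE and 17.0 ± 1.34 in BURP-16SR. The summed RAR level averaged 32.8 ± 8.65 CPM per kb in Ba/Sq tumors, 18.5 ± 2.33 in BURP-19NE and 22.9 ± 2.98 in BURP-16SR. The lowest Ba/Sq tumors had RXR and RAR sums of 17.8 and 21.9 CPM per kb. All BURP-19NE tumors lay below these, whereas BURP-16SR overlapped with Ba/Sq tumors, with sums of up to 18.4 and 25.4. The mean of the summed PPAR level was highest in BURP-18BaSq, at 24.5 ± 3.29 CPM per kb, where the mean over Ba/Sq tumors was 12.4 ± 6.97. Its tumors (21.1 to 27.7) overlapped with those of BURP-25BaSq, of which the highest had 23.4.

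**Figure D2:**
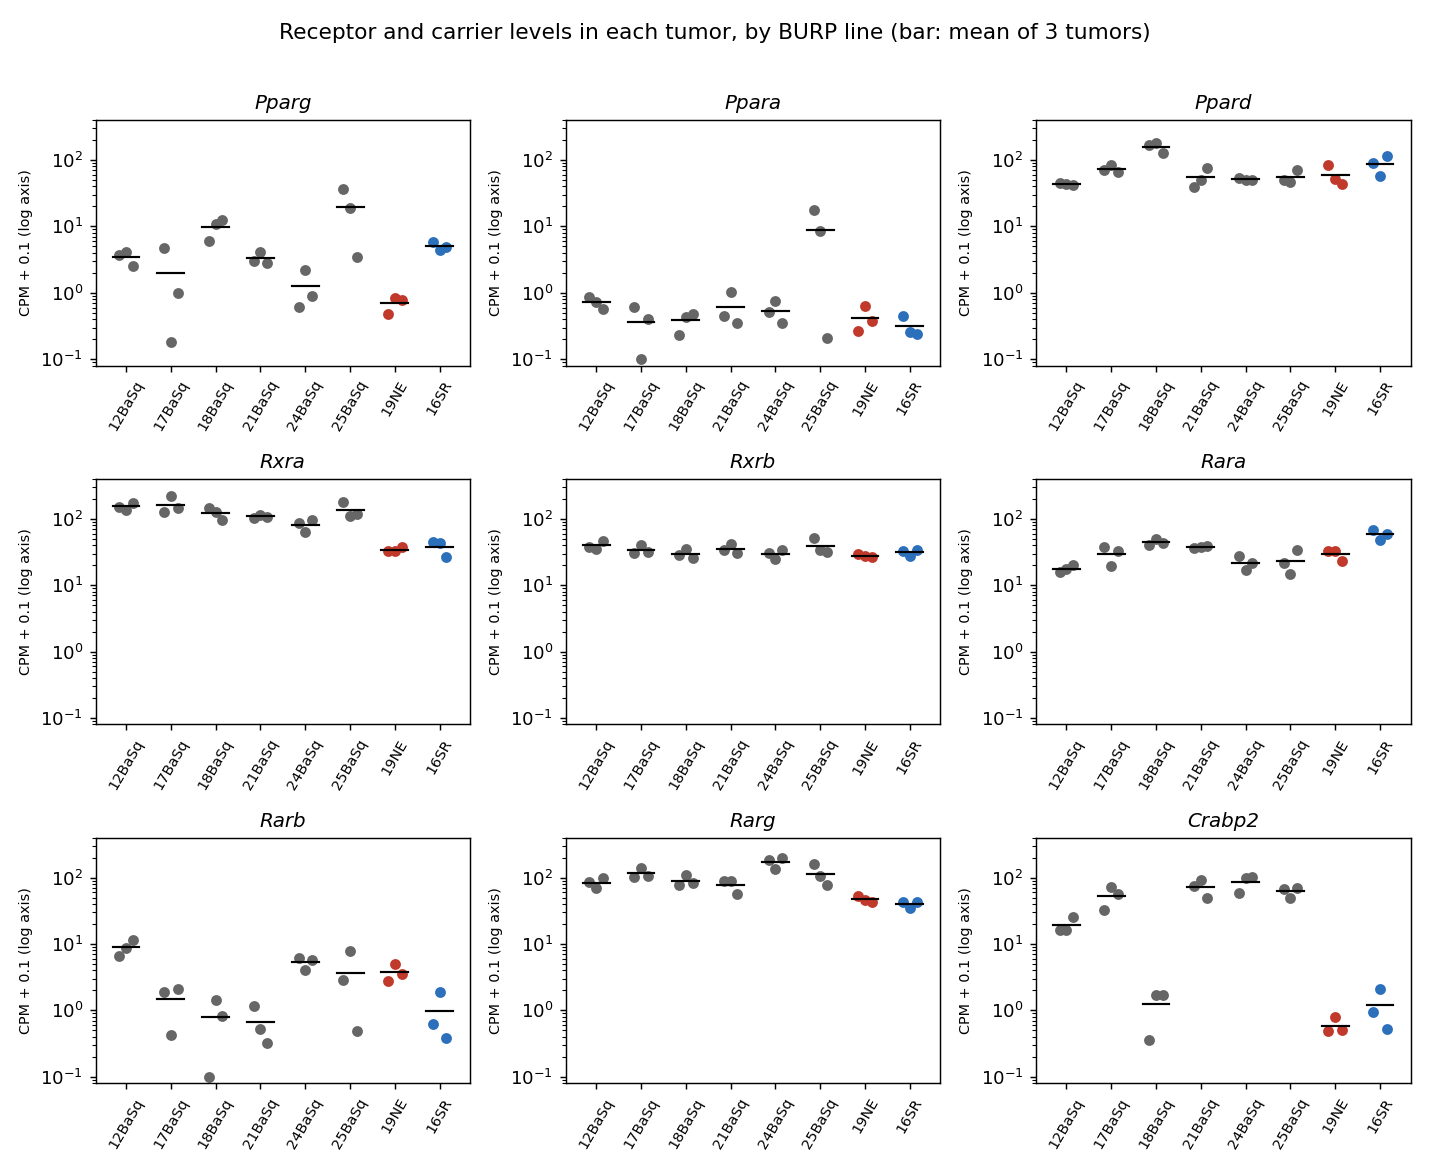
Each point is 1 tumor, with its level in CPM plus 0.1 on a log axis, by BURP line, and each bar is the mean of 3 tumors (grey: Ba/Sq lines, red: BURP-19NE, blue: BURP-16SR). Crabp2 lies between 16.3 and 103 CPM in 5 Ba/Sq lines and at or below 2.03 CPM in BURP-18BaSq, BURP-19NE and BURP-16SR, while Rxrb stays between 24.8 and 51.8 CPM in all 24 tumors.

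In BURP-19NE, 4 of the 9 genes fell relative to Ba/Sq tumors and none rose, namely Pparg, Rxra, Rarg and Crabp2 (edgeR's quasi-likelihood test, Benjamini-Hochberg adjusted p under 0.05 over all genes tested). Of all 20995 genes tested, 33.5% passed the same test. The median log2 fold change was -1.20 over the 9 genes and -0.14 over all genes. Tumors of the compared groups did not overlap for Rxra and Rarg. In this and the later comparisons, the share of all genes without overlap was not determined.

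Rxra, a partner of both PPARs and RARs, stood at 32.3, 32.6 and 37.7 CPM in the BURP-19NE tumors, and its lowest, median and highest levels over the 18 Ba/Sq tumors were 63.4, 122 and 219 CPM. Every BURP-19NE tumor lay below every Ba/Sq tumor. Rxra was lower in BURP-19NE by a log2 fold change of -1.89 ± 0.28 (SE, adjusted p = 2.85e-05). Rarg stood at 52.8, 45.5 and 42.6 CPM in BURP-19NE, and its lowest, median and highest levels in Ba/Sq tumors were 55.8, 99.8 and 199 CPM. The groups again did not overlap, although the highest BURP-19NE tumor came close to the lowest Ba/Sq tumor. The log2 fold change of Rarg was -1.20 ± 0.31 (adjusted p = 0.00468).

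Crabp2 stood at 0.382, 0.684 and 0.409 CPM in BURP-19NE, against a lowest level of 0.261, a median of 52.9 and a highest level of 103 CPM in Ba/Sq tumors. The overlap came from tumor C148-M3 of BURP-18BaSq, a Ba/Sq line that was itself low in Crabp2. The log2 fold change was -6.63 ± 1.46 (adjusted p = 0.00151). The calls of Rxra, Rarg and Crabp2 held in all 21 fits that each left out 1 tumor.

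Pparg, the PPAR of fat storage and urothelial differentiation, stood at 0.382, 0.737 and 0.681 CPM in BURP-19NE, and its lowest, median and highest levels in Ba/Sq tumors were 0.0828, 3.46 and 36.5 CPM. BURP-19NE was the line with the lowest mean, but 2 tumors of BURP-17BaSq and BURP-24BaSq lay below or among its tumors. The log2 fold change was -3.42 ± 1.31 (adjusted p = 0.0482). This call was lost in 10 of the 21 fits that left out 1 tumor, with adjusted p between 0.0502 and 0.161 and log2 fold changes between -3.62 and -3.21. The tumors concerned were all 3 of BURP-19NE, C47-M30, C152-M1, C149-M3 and P4 of BURP-18BaSq, P4.2 of BURP-21BaSq, and C102-M30 and C102-M1 of BURP-25BaSq. Without both C102-M1 and C102-M30, the log2 fold change of Pparg was -3.28 (adjusted p = 0.0576) and 3 of the 9 genes were called.

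The other 5 genes did not pass the test in BURP-19NE. Ppara, the PPAR of fatty acid oxidation, averaged 0.323 ± 0.183 CPM (n = 3) against 1.8 ± 4.36 CPM in Ba/Sq tumors (n = 18, adjusted p = 0.261), and its Ba/Sq mean was carried by 2 tumors described below. Ppard averaged 59 ± 20.7 against 73 ± 42.6 CPM (adjusted p = 0.614), Rxrb 27.7 ± 1.33 against 34.5 ± 6.91 CPM (adjusted p = 0.177) and Rara 29.5 ± 5.64 against 29.1 ± 11 CPM (adjusted p = 0.973). Rarb averaged 3.68 ± 1.17 against 3.37 ± 3.43 CPM (adjusted p = 0.93).

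In BURP-16SR, 4 of the 9 genes were again called against Ba/Sq tumors, Rxra, Rarg and Crabp2 lower and Rara higher, where 25.1% of 21028 genes passed the test. Both comparisons use the same 18 Ba/Sq tumors. The median log2 fold change was -1.40 over the 9 genes and -0.03 over all genes. Rxra stood at 44, 43.5 and 26.9 CPM and Rarg at 42.3, 34.6 and 42.6 CPM in the BURP-16SR tumors, all below the lowest Ba/Sq tumor for either gene. The log2 fold changes were -1.69 ± 0.30 for Rxra (adjusted p = 2.7e-04) and -1.40 ± 0.32 for Rarg (adjusted p = 0.00303). Crabp2 stood at 0.857, 2.03 and 0.421 CPM, with a log2 fold change of -5.42 ± 1.40 (adjusted p = 0.00707). These 3 calls held in all 21 fits that left out 1 tumor.

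Rara, the most widely expressed RAR, was the gene that rose in BURP-16SR. It stood at 67.1, 48.6 and 59.7 CPM there, and its lowest, median and highest levels in Ba/Sq tumors were 14.5, 29.7 and 49.9 CPM. The lowest of them, tumor C74-MNT, lay below the highest Ba/Sq tumor, C149-M3 of BURP-18BaSq. The log2 fold change was 1.05 ± 0.30 (adjusted p = 0.0134). It was 0.92 (adjusted p = 0.0954) without C73-M10 and 0.96 (adjusted p = 0.0754) without P5, both of BURP-16SR, so that the call was lost without either tumor.

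Pparg averaged 4.94 ± 0.735 CPM in BURP-16SR, with a log2 fold change against Ba/Sq tumors of -0.34 ± 1.01 (adjusted p = 0.842). Ppard averaged 86.6 ± 28.9 CPM (adjusted p = 0.653), Rxrb 31.1 ± 3.39 CPM (adjusted p = 0.719), Ppara 0.213 ± 0.113 CPM (adjusted p = 0.23) and Rarb 0.864 ± 0.817 CPM (adjusted p = 0.266). Rxrg, measured beside these genes, was higher in BURP-16SR, at 4.8, 4.3 and 5.68 CPM, than in all Ba/Sq tumors, of which the highest had 3.78 CPM (log2 fold change 3.59 ± 1.31, adjusted p = 0.0488).

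**Figure D3:**
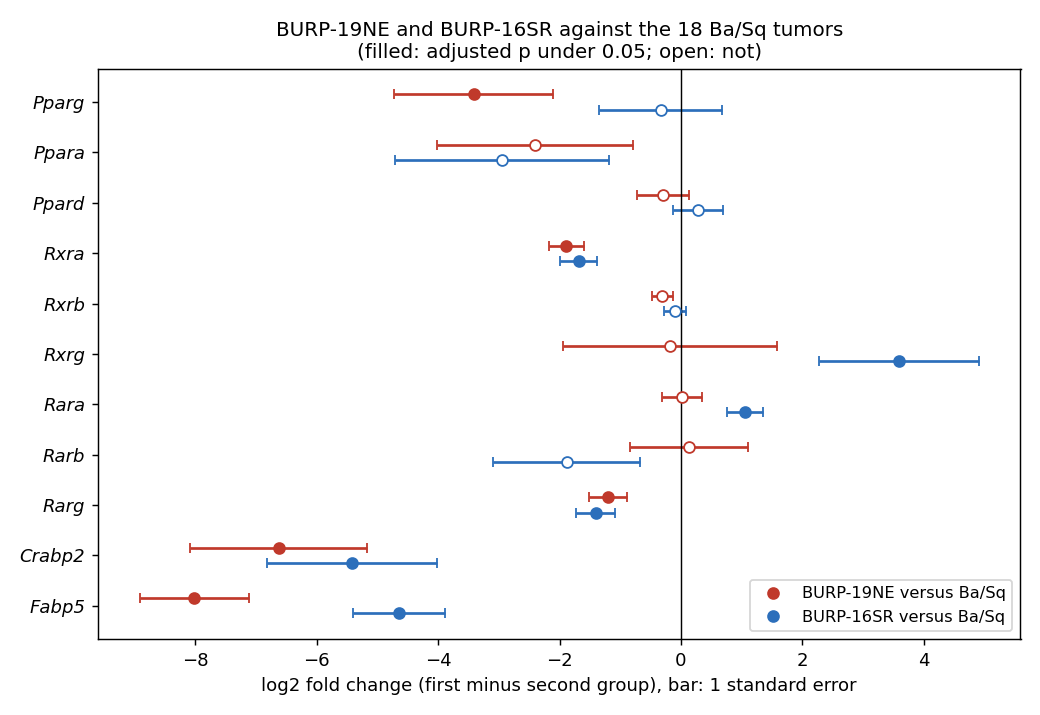
Points give the log2 fold change of BURP-19NE (red) and BURP-16SR (blue) against the same 18 Ba/Sq tumors, bars give 1 standard error, and filled points passed an adjusted p of 0.05. Rxra, Rarg, Crabp2 and Fabp5 are lower in both lines, Pparg is filled only for BURP-19NE (-3.42) and Rara only for BURP-16SR (1.05), a contrast that is tested in the direct comparison of these lines.

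Compared directly, BURP-16SR had more Pparg and more Rara than BURP-19NE, and 2 of the 8 genes tested were called where 34.3% of 17556 genes passed the test. Ppara was too low to be tested. Pparg had a log2 fold change of 3.12 ± 0.36 (adjusted p = 0.00203) and Rara one of 1.07 ± 0.20 (adjusted p = 0.00888), and the tumors of these lines overlapped for neither gene. Both calls held when any 1 of the 6 tumors was left out. For Rarg, the highest BURP-16SR tumor (42.57 CPM) and the lowest BURP-19NE tumor (42.62 CPM) nearly met (log2 fold change -0.15, adjusted p = 0.454). The lines did not overlap for Rarb, with lower levels in BURP-16SR. Rarb had a log2 fold change of -1.99 ± 0.68, which missed the threshold (adjusted p = 0.0628). Without tumor C74-MNT of BURP-16SR, that of Rarb was -3.13 (adjusted p = 0.0107).

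Markers of some other cell types differed as well. Of all genes, 33.5% were called in BURP-19NE and 25.1% in BURP-16SR. All 15 genes of a list of epithelial adhesion markers were lower in BURP-19NE and in BURP-16SR. The summed level of the list was 669 to 2775 CPM in Ba/Sq tumors, 3.52 to 6.26 CPM in BURP-19NE and 40.96 to 69.42 CPM in BURP-16SR. Of 16 basal and squamous markers, 15 were lower in BURP-19NE and 16 in BURP-16SR, with sums of 519.9 to 560.2 and 115 to 151 CPM against 13593 to 30097 CPM. In BURP-16SR, 7 of 12 fibroblast genes (8807, 22812 and 850.4 CPM against 279 to 11176 CPM, with 1 tumor above that range) and 8 of 12 endothelial genes (315 to 503 CPM against 48.0 to 545 CPM) were higher than in Ba/Sq tumors. In BURP-19NE, 10 of 12 skeletal muscle genes were higher, but the sum of the list was high in 1 tumor only, with 2237 CPM in C80-M1, 19.5 CPM in C80-M3 and 43.7 CPM in C80-M30 against 16.7 to 298 CPM in Ba/Sq tumors. In BURP-19NE, 0 of 12 fibroblast genes were called and 1 of 12 endothelial genes was lower. In BURP-16SR, 4 of 12 skeletal muscle genes were higher and 1 was lower. Of 14 macrophage genes 1 was higher in BURP-19NE and 2 were higher in BURP-16SR, and of 11 T cell genes 2 were lower and 1 was higher in these lines, respectively. These macrophage shares (7.14% and 14.3%) and T cell shares (18.2% and 9.09%) were below those of all genes. Of 7 tested sebaceous genes, 3 were lower and 1 was higher in BURP-19NE, and 1 moved either way in BURP-16SR. In whole tumors, fewer cells of a type and less RNA per cell cannot be told apart. The part of these markers in the levels of the receptors was not tested.

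Both carriers of retinoic acid were low outside the Ba/Sq lines, but they parted within them. Fabp5 stood at 1.53, 1.42 and 1.45 CPM in BURP-19NE and at 17.7, 17.4 and 8.91 CPM in BURP-16SR, and its lowest, median and highest levels in Ba/Sq tumors were 108, 289 and 1177 CPM, the last in C102-M1 (the next highest tumor had 804 CPM). Neither line overlapped with the Ba/Sq tumors. The log2 fold changes of Fabp5 were -8.02 ± 0.90 in BURP-19NE (adjusted p = 7.44e-07) and -4.65 ± 0.76 in BURP-16SR (adjusted p = 1.07e-04). In BURP-18BaSq, Crabp2 stood at 0.261, 1.59 and 1.59 CPM while Fabp5 stood at 108, 440.5 and 264 CPM. The line thus had the Fabp5 level of a Ba/Sq line and the Crabp2 level of BURP-19NE and BURP-16SR. Per kb of exon, Crabp2 supplied between 0.648% and 1.6% of the summed level of both carriers in BURP-18BaSq and between 8.73% and 50.7% in the other Ba/Sq tumors.

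**Figure D4:**
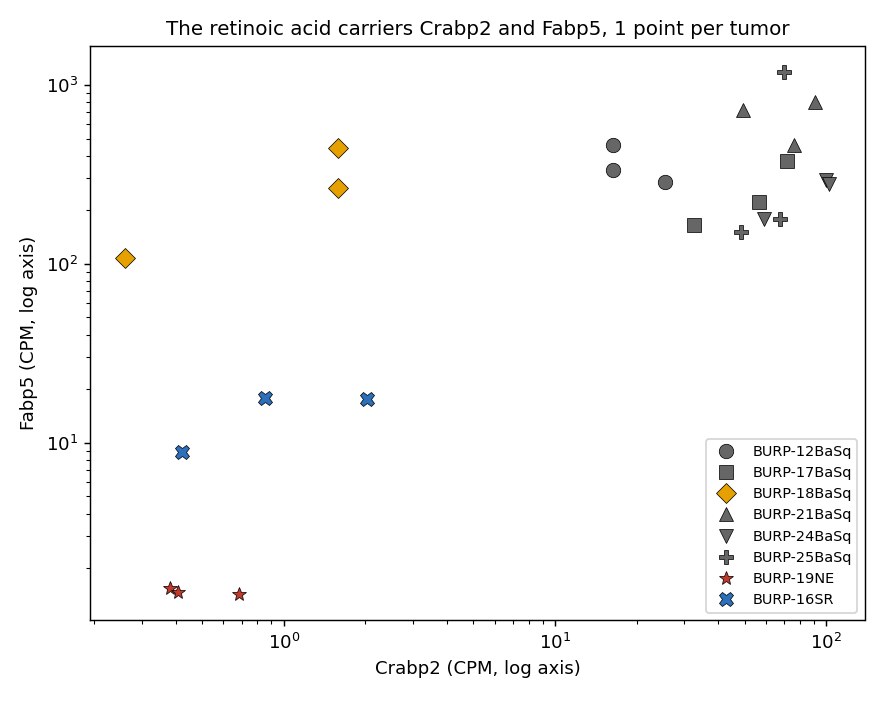
Each symbol is 1 tumor, with Crabp2 (CPM) on the horizontal and Fabp5 (CPM) on the vertical log axis. BURP-18BaSq (yellow) combines 0.261 to 1.59 CPM of Crabp2 with 108 to 440.5 CPM of Fabp5, whereas both genes are low in BURP-19NE (red) and BURP-16SR (blue).

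Among the 6 Ba/Sq lines, 8 of the 9 genes differed between lines, and only Rxrb did not pass (adjusted p = 0.263). The background of this test was 50.5% of 20523 genes. The smallest adjusted p belonged to Crabp2 (2.31e-05) and Ppard (1.22e-04), followed by Ppara (0.00269), Rara (0.00658), Pparg (0.0093), Rarb (0.0108), Rxra (0.023) and Rarg (0.0238). Leaving out single tumors ended the calls of Ppara (C102-M3, adjusted p = 0.108), Rxra (C81-M1, 0.0595, and C81-M30, 0.0771) and Rarg (C81-M1, 0.0794, and P2 of BURP-24BaSq, 0.0836). Without C102-M1 and C102-M30, 8 genes were called as well.

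BURP-18BaSq differed from the other Ba/Sq lines in Ppard and Crabp2, 2 of the 9 genes, where 15.9% of the genes passed the test. Ppard stood at 171, 179 and 126 CPM, above every other tumor, and the mean of the other 15 Ba/Sq tumors was 55.8 ± 14.1 CPM. The log2 fold change of Ppard was 1.54 ± 0.19 (adjusted p = 2.88e-05), and that of Crabp2 was -5.59 ± 0.72 (adjusted p = 4.67e-05). Both held when any of the 18 tumors was left out. Rara stood at 40.9, 49.9 and 43.2 CPM, above all other Ba/Sq tumors, whose mean was 26 ± 9.07 CPM, and narrowly missed the threshold with a log2 fold change of 0.80 ± 0.27 (adjusted p = 0.0502). Rara passed in 5 of the 18 fits that left out a tumor, which were those without C102-M1, C152-M1 or any tumor of BURP-21BaSq (adjusted p from 0.0355 to 0.0472). Rxrg had 2.09, 1.76 and 3.78 CPM in BURP-18BaSq, or 106 counts in all, against a mean of 0.0104 CPM in the other Ba/Sq tumors (log2 fold change 7.06 ± 0.62, adjusted p = 7.39e-07).

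BURP-25BaSq was the line with the most Pparg and Ppara, and both levels rested on 2 of its 3 tumors. Pparg stood at 36.5 CPM in C102-M3, 19.1 CPM in C102-M30 and 3.35 CPM in C102-M1, and the mean of the other 15 Ba/Sq tumors was 3.88 ± 3.58 CPM. Ppara stood at 17.5, 8.51 and 0.112 CPM in the same order, where no other tumor of the series exceeded 0.918 CPM. C102-M3 and C102-M30 thus held the highest values of both genes in the whole series, and C102-M1 lay among the other lines.

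Ppara was called in BURP-25BaSq (log2 fold change 4.33 ± 0.64, adjusted p = 0.00313), as the only one of the 9 genes, where 0.287% of the genes passed the test. Without C102-M3 its log2 fold change was 3.27 (adjusted p = 0.318). Pparg missed the threshold, with a log2 fold change of 2.36 ± 0.75 (adjusted p = 0.28). With C102-M1 left out, 1.71% of 21271 genes passed, Ppara was again the only one of the 9 (log2 fold change 4.92 ± 0.49, adjusted p = 2.11e-05), and Pparg had a log2 fold change of 2.88 ± 0.79 (adjusted p = 0.0791). Pparg supplied up to 52.7% and Ppara up to 19.5% of the summed PPAR level per kb in this line. The summed level of 12 adipocyte markers was 66.6 CPM in C102-M3 and 81.7 CPM in C102-M30, within the range of 28.2 to 729.6 CPM over all Ba/Sq tumors.

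In the same comparison, without C102-M1, 3 of 21 tested urothelial genes and 1 of 27 tested PPAR target and lipid genes were higher and none was lower. The uroplakin Upk3b, a protein of the luminal bladder surface, stood at 19.4 and 2.98 CPM against a mean of 0.0598 CPM, and the uroplakin Upk2 at 5.98 and 6.8 CPM against 0.199 CPM (adjusted p = 7.72e-06 and 5.06e-04). Krt20, a keratin of umbrella cells, stood at 5.68 CPM in C102-M3 and 186.7 CPM in C102-M30 against a mean of 2.58 CPM (adjusted p = 0.00975). The highest of the other tumors had 15.9 CPM of Krt20, so that C102-M30 alone stood above them. Pdk4, a PPAR target that restrains glucose oxidation, stood at 17.5 and 23.4 CPM against 0.418 CPM (adjusted p = 0.0022). With all 3 tumors, Upk2 and Pdk4 were the genes of these lists that passed.

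The remaining 4 Ba/Sq lines had no gene of the 9 past the threshold against the other 5 lines. In BURP-12BaSq, where 6.94% of all genes passed, 2 of the 9 had an unadjusted p under 0.05. Rarb stood there at 6.49, 8.65 and 11.3 CPM, against a mean of 2.29 ± 2.43 CPM (log2 fold change 2.01 ± 0.81, adjusted p = 0.133), and Rara was at its lowest mean of all lines, 17.7 ± 2.13 CPM (adjusted p = 0.128).

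BURP-24BaSq was the line with the highest Rarg and Crabp2 means, where 2.6% of all genes passed the test. Rarg stood at 181, 135 and 199 CPM, against a mean of 96.3 ± 26.5 CPM (log2 fold change 0.79 ± 0.22, adjusted p = 0.0632). Rxra stood at 85.5, 63.4 and 94.5 CPM, against 137 ± 33.6 CPM (log2 fold change -0.80 ± 0.23, adjusted p = 0.0658). Both narrowly missed the threshold. Pparg averaged 1.15 ± 0.866 CPM in BURP-24BaSq (adjusted p = 0.219). DESeq2 called these 3 genes, with adjusted p of 0.0224 for Rarg, 0.00859 for Rxra and 0.0403 for Pparg. It also called more genes in all, 1500 against 534 with edgeR.

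In BURP-17BaSq (1.64% of all genes passed) none of the 9 genes and in BURP-21BaSq (0.0195% passed) 1 of them, Rarb, had an unadjusted p under 0.05, and DESeq2 called none in these lines or in BURP-12BaSq. Pparg in BURP-17BaSq stood at 4.64 CPM in C152-M1, 0.0828 CPM in C165-M30 and 0.892 CPM in P4. The adipocyte list summed to 729.6 CPM in C152-M1, the highest value of the series, and to 81.6 and 54.5 CPM in the other tumors of that line. Its part in the Pparg level was not tested.

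Ordered by their means, few neighbouring lines were separated for any gene. Of the 7 neighbouring pairs of lines, 2 did not overlap for Pparg, Ppard, Rxra, Rarg and Crabp2, 1 for Rara and Rarb, and none for Ppara and Rxrb. The same count over all genes was not determined. For Pparg the order was BURP-25BaSq (19.7 ± 16.6 CPM, 27.8 CPM without C102-M1), BURP-18BaSq (9.79 ± 3.37), BURP-16SR, BURP-12BaSq (3.36 ± 0.848), BURP-21BaSq (3.22 ± 0.698), BURP-17BaSq (1.87 ± 2.43), BURP-24BaSq and BURP-19NE (0.6 ± 0.191), with breaks on either side of BURP-16SR. The ratio of the highest to the lowest line mean was 177 for Crabp2, 15.6 for Rarb, 4.78 for Rxra and 1.43 for Rxrb.

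Rarb, which retinoic acid itself induces through a response element in its promoter, was the lowest of the RARs and varied most among them. It supplied at most 7.43% of the RAR level in any tumor. The order of line means was BURP-12BaSq (8.8 ± 2.39 CPM), BURP-24BaSq (5.2 ± 1.11), BURP-19NE, BURP-25BaSq (3.59 ± 3.71), BURP-17BaSq (1.39 ± 0.926), BURP-16SR, BURP-18BaSq (0.683 ± 0.669) and BURP-21BaSq (0.563 ± 0.433), and only BURP-12BaSq was separated from its neighbour. Without C102-M1, the BURP-25BaSq mean of Rarb was 5.19 CPM. In C148-M3 of BURP-18BaSq no count was found, which at its depth allows up to 0.392 CPM.

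Rarb lies on the minus strand of chromosome 14 (GRCm38, 16430839 to 16819156), where its exons overlap those of Top2b on the other strand. The library kit keeps strand, but whether the counting used it is not given in the sources used here, so that reads of the 2 genes might be mixed. Top2b averaged 278 CPM in BURP-19NE, 148.5 CPM in Ba/Sq tumors and 95.9 CPM in BURP-16SR. The correlation of Rarb with Top2b over the 24 tumors, which share lines, was r = 0.41 (rho = 0.42), and Rarb had no count in C148-M3, where Top2b was at 117 CPM.

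The promoter windows of RefSeq (GRCm38.p6, 250 bases before to 50 after a start) held 18 windows for the 8 receptors among the 9 genes and for Rxrg. They were searched on both strands for direct repeats of the half-site AGGTCA, or of its variants that begin with G (GGGTCA), hold a second T (AGTTCA) or combine both changes (GGTTCA), with spacings of 1, 2 and 5 bases, the arrangements that RXR heterodimers bind. Of these 18 windows, only that of Rarb held a match, with a spacing of 5, at chr14:16575513-16575529 on the minus strand, from 53 to 37 bases before the start. Of 32851 windows of all genes, 0.0974% held a repeat with spacing 5, and 0.588% held one with any of the spacings. A response element in the Rarb promoter was known before the search, and the searched variants include both half-sites of this match. The match is therefore given as a description, and its rarity is no independent support. The site is shown with 20 bases on either side (chr14:16575493-16575549, minus strand, upstream of the start), because Rarb is the one gene of the set whose windows held such a repeat. Capitals mark the half-sites.
Rarb promoter: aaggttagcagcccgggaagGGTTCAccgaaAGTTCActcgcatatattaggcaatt
The windows of Pparg, Ppara, Ppard, Rxra, Rxrb, Rara, Rarg and Rxrg held none of these letters in these arrangements, which says nothing of binding elsewhere. Counts per gene do not separate the starts of a gene, of which the table lists 3 for Pparg.

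The other genes lie at chromosome 6, 115360951 to 115490399 (Pparg), chromosome 15, 85734983 to 85802819 (Ppara), chromosome 17, 28232700 to 28301474 (Ppard), chromosome 2, 27676440 to 27762957 (Rxra) and chromosome 17, 34031812 to 34038399 (Rxrb). Rara lies at chromosome 11, 98927818 to 98974942, Rarg at chromosome 15, 102234938 to 102257517 on the minus strand, and Crabp2 at chromosome 3, 87948666 to 87953376. All coordinates are of GRCm38, and all 9 genes are annotated as protein coding.

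Of 24 tested genes that supply, store and clear retinoids, 11 were lower and 3 higher in BURP-19NE than in Ba/Sq tumors, or 58.3% against 33.5% of all genes. The median log2 fold change was -3.30 over the list and -0.14 over all genes. Besides Fabp5, the lower genes with the highest levels were Aldh1a3, which oxidizes retinal to retinoic acid (4.27 ± 0.588 against 124 ± 89.4 CPM, adjusted p = 8.85e-04), the retinol transporter Stra6 (0.799 ± 0.705 against 79.9 ± 91.8 CPM, adjusted p = 0.0083) and the retinol dehydrogenase Dhrs9 (0.27 ± 0.167 against 38.2 ± 48.9 CPM, adjusted p = 0.0025). In the other direction, Rdh10, which makes retinal from retinol, was higher, at 199 ± 43.4 against 41.3 ± 26 CPM (log2 fold change 2.28 ± 0.41, adjusted p = 2.32e-04).

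In BURP-16SR, 5 of the 24 retinoid genes were lower and 2 higher than in Ba/Sq tumors, or 29.2%, near the 25.1% of all genes, and the median log2 fold change was -0.57. Aldh1a3 (16.4 ± 9.04 CPM, adjusted p = 0.0239), Rdh11 (12.7 ± 2.15 against 29.5 ± 8.11 CPM, adjusted p = 0.00291) and Rdh12 (1.44 ± 1.73 against 12.8 ± 11.2 CPM, adjusted p = 0.0407) were lower besides Fabp5, and Rdh10 was higher (119 ± 31 CPM, adjusted p = 0.0122). Against BURP-19NE, 9 of 17 tested retinoid genes were higher in BURP-16SR and none was lower, where 34.3% of all genes passed in either direction. Among them were Dhrs9 (76.7 ± 40.3 CPM, log2 fold change 8.20 ± 0.64, adjusted p = 7.81e-04), Stra6 (21.1 ± 13.2 CPM, adjusted p = 0.0127) and Aldh1a3 (adjusted p = 0.0152), besides Fabp5.

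**Figure D5:**
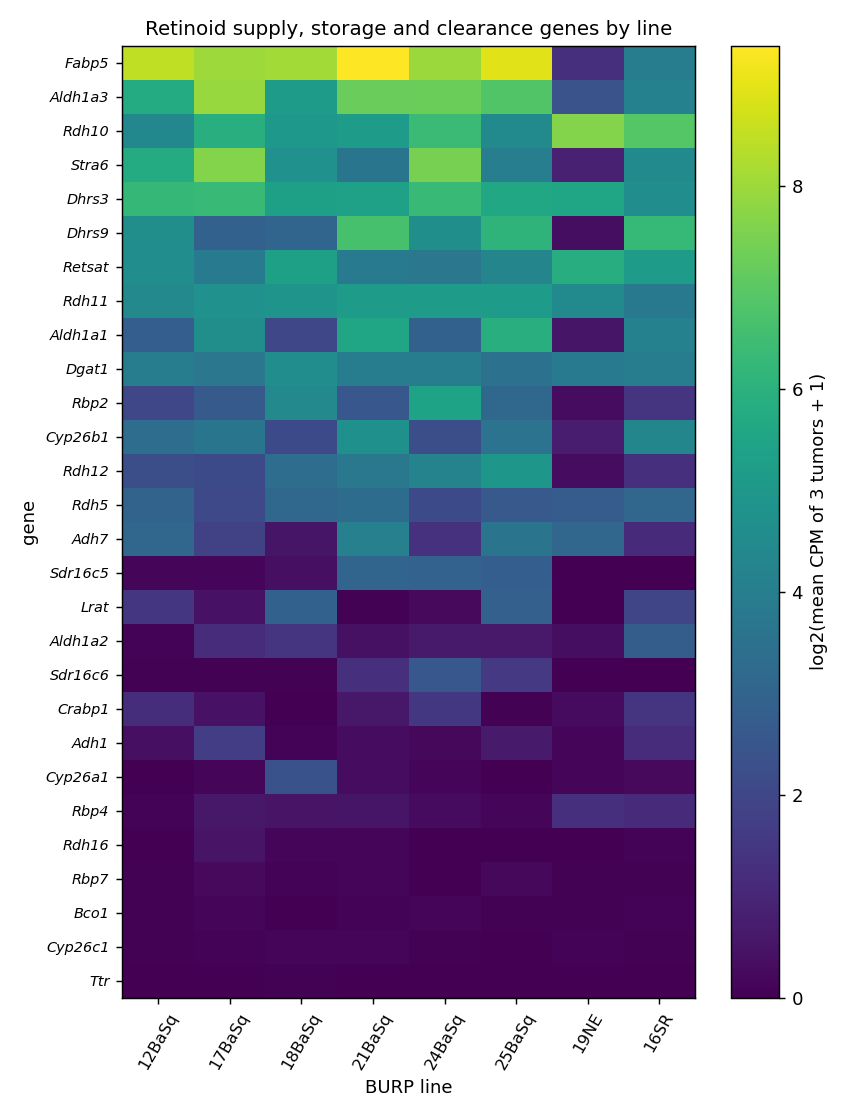
Colour gives log2(mean CPM of 3 tumors + 1) of genes of the retinoid list (rows) in the 8 lines (columns). Fabp5, Aldh1a3, Stra6 and Dhrs9 are at 4.27 CPM or less in BURP-19NE (dark), where Rdh10 is at its highest mean (199 CPM). Cyp26a1 is visible in BURP-18BaSq (mean of 4.2 CPM, uneven among its tumors).

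In BURP-18BaSq, 3 of the 24 retinoid genes were higher and 2 lower than in the other Ba/Sq lines, or 20.8%, near the 15.9% of all genes. The higher genes were Retsat, a retinol saturase (39.2 ± 17.3 against 16.2 ± 5.42 CPM, adjusted p = 0.00329), Dgat1, an acyltransferase that can esterify retinol (22.9 ± 5.44 against 13.2 ± 2.57 CPM, adjusted p = 0.00869), and Cyp26a1, which breaks retinoic acid down and is induced by it (4.2 ± 5.33 against 0.0901 ± 0.161 CPM, adjusted p = 5.89e-04). The SD of Cyp26a1 in BURP-18BaSq exceeded its mean, so that its level was uneven among the tumors of the line. The epithelial adhesion list summed to between 669 and 1967 CPM in that line, within the Ba/Sq range, and 3 of its 15 genes were lower.

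Of 17 tested retinoic acid target genes, 8 were lower and 1 was higher in BURP-19NE, and 3 were lower and none higher in BURP-16SR, or 52.9% against 33.5% and 17.6% against 25.1% of all genes. The list was not sorted by the direction in which retinoic acid moves each gene, so that these counts give no direction of response. The highest of the lower genes were epithelial. Krt13 and Krt4, keratins of stratified mucosa, averaged 2095 and 858 CPM in Ba/Sq tumors, 1.4 and 0.0293 CPM in BURP-19NE and 0.294 and 0.0234 CPM in BURP-16SR. Tgm1, which cross-links the cornified envelope, averaged 163 ± 132 CPM in Ba/Sq tumors, 0.451 ± 0.0247 CPM in BURP-19NE and 2.59 ± 1.4 CPM in BURP-16SR. The other one among the 4 with the highest levels in BURP-19NE was Stra6, which stands on both retinoid lists. The homeobox gene Hoxb4 was higher in BURP-19NE (49.8 ± 7.02 against 16.5 ± 14.6 CPM, adjusted p = 0.0185), and within the Ba/Sq lines it was also higher in BURP-18BaSq (45.3 ± 15.4 against 10.7 ± 3.33 CPM, adjusted p = 1.56e-05).

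Of 19 tested urothelial genes linked to Pparg, 7 were lower in BURP-19NE and 6 in BURP-16SR, and none was higher in either line. These shares, 36.8% and 31.6%, were near the 33.5% and 25.1% of all genes called in either direction. Counted in the lower direction alone, 17.9% and 11.3% of all genes were called. Ppl, a plaque protein of surface cells, averaged 599 ± 498 CPM in Ba/Sq tumors, 1.54 ± 0.299 CPM in BURP-19NE (adjusted p = 2.19e-05) and 20.3 ± 8.05 CPM in BURP-16SR (adjusted p = 0.00178). Elf3, an epithelial transcription factor, averaged 147 ± 114, 0.0141 ± 0.0245 and 0.174 ± 0.0986 CPM in these groups. Gpx2 and Grhl3 had no count in either line, so that Gpx2 was at least 549-fold lower in BURP-19NE and 337-fold lower in BURP-16SR, with a floor of 3 counts in the shallowest library of the line. Grhl3, a transcription factor of umbrella cells, was at least 424-fold lower in BURP-19NE and 260.4-fold lower in BURP-16SR. Klf5 averaged 129 ± 67.3 CPM in BURP-16SR against 386 ± 96.1 CPM (adjusted p = 5.05e-04).

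Of 27 tested PPAR target and lipid genes, 5 were lower and 2 higher in BURP-19NE, and 4 were lower and 4 higher in BURP-16SR. These shares, 25.9% and 29.6%, were below and near the 33.5% and 25.1% of all genes. Hmgcs1, an enzyme of sterol synthesis rather than a classical PPAR target, was lower in both lines (35 ± 5.38 and 29.8 ± 12.8 against 166 ± 64.1 CPM, adjusted p = 6.33e-05 and 1.07e-04). Besides it, the fatty acid carrier Fabp4 (2.73 ± 0.726 against 53 ± 65.5 CPM, adjusted p = 0.0364), Mgll and Ehhadh were lower in BURP-19NE. Fabp4 is also an adipocyte marker, and 3 of 10 tested adipocyte genes were lower in BURP-19NE.

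The lipid droplet protein Plin2 was higher in BURP-19NE (147 ± 25.8 against 38.9 ± 20.8 CPM, adjusted p = 0.00126) and in BURP-16SR (141 ± 55.8 CPM, adjusted p = 0.00207). Scd1 was also higher in BURP-16SR (315 ± 265 against 92 ± 129 CPM, adjusted p = 0.0402). Angptl4, a secreted inhibitor of lipoprotein lipase and a target of all 3 PPARs, averaged 117 ± 39.6 CPM in BURP-16SR, 10.4 ± 8.2 CPM in Ba/Sq tumors (log2 fold change 3.53 ± 0.52, adjusted p = 3.21e-05) and 6.58 ± 1.08 CPM in BURP-19NE (adjusted p = 7.36e-04). Against BURP-19NE, 5 of 19 tested PPAR target and lipid genes were higher in BURP-16SR and 2 lower (36.8%, near the 34.3% of all genes), Fabp4 among the higher ones (40.2 ± 23.8 CPM, log2 fold change 3.97 ± 0.52, adjusted p = 0.0028). In BURP-18BaSq, with the most Ppard, none of 25 passed in either direction.

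Of the other nuclear receptors that pair with RXRs or compete with them, 2 of 12 tested were higher and 1 lower in BURP-19NE, below the share of all genes. The orphan receptors Nr4a2 (47.8 ± 17.3 against 7.28 ± 4.02 CPM, adjusted p = 6.87e-06) and Nr2f1 (51.4 ± 8.03 against 5.35 ± 3.5 CPM, adjusted p = 1.96e-04) were higher, and the vitamin D receptor Vdr was lower (1.17 ± 0.159 against 24.7 ± 18.5 CPM, adjusted p = 1.67e-04). In BURP-18BaSq, Nr2f2, Nr2f6, the thyroid hormone receptor Thrb (23.7 ± 16.3 against 4 ± 3.4 CPM, adjusted p = 0.0149) and Rxrg were higher and Vdr was lower. The list holds 14 such receptors, and 15.9% of all genes passed in BURP-18BaSq. Of 22 coactivators and corepressors, 4 were higher and 4 lower in BURP-19NE, or 36.4% against 33.5% of all genes. The highest of each were Ncoa2 (134 ± 21.3 against 82.7 ± 19 CPM, adjusted p = 0.00627) and Kmt2c (106 ± 12.3 against 218 ± 42.3 CPM, adjusted p = 4.42e-04). In BURP-16SR 2 of the 22 were lower and none higher, or 9.09%, below the 25.1% of all genes. These were Tbl1xr1 (62.6 ± 6.1 against 167 ± 72.8 CPM, adjusted p = 0.0237) and Ppargc1b (1.89 ± 1.56 against 9.14 ± 4.97 CPM, adjusted p = 0.0163).

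Between male and female Ba/Sq lines, none of the 8 genes tested passed, with edgeR or with DESeq2, where 5.46% of 17922 genes did with edgeR. Without adjustment, 3 had a p under 0.05. Ppard averaged 92.0 ± 53.9 CPM in the 9 male and 54.0 ± 11.95 CPM in the 9 female tumors (log2 fold change 0.80 ± 0.28, adjusted p = 0.101). Rxra averaged 146 ± 34.6 and 109 ± 31.8 CPM (adjusted p = 0.139), and Crabp2 24.7 ± 25.2 and 73.6 ± 20.3 CPM (adjusted p = 0.142). The male and female tumors overlapped for all 9 genes. The sexes were represented by 3 lines each, and Ppard and Crabp2 in the male lines include BURP-18BaSq. Without C102-M3, Rxra passed (log2 fold change 0.56, adjusted p = 0.0452).

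Among the 9 genes, levels went together in some pairs. These correlations of log2 CPM run over 24 tumors that share lines and are given as a description. Rarg and Crabp2 had r = 0.72, Rxra and Rarg 0.67, Ppard and Rara 0.64 and Pparg and Ppara 0.63. The rank correlations (rho) of these pairs were 0.70, 0.53, 0.70 and 0.29, in that order. Ppard and Rarb had r = -0.69 and Rara and Rarb -0.66. Within the 18 Ba/Sq tumors, r was -0.10 for Rxra and Rarg, 0.37 for Rarg and Crabp2 and -0.78 for Ppard and Crabp2.

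Of 17027 genes with a mean of at least 1 CPM, those whose log2 CPM followed each gene most closely over the 24 tumors were Jak3 (r = 0.86), Tbx2 and Gm45606 for Pparg, Ppp2r2c (0.88), Hes2 and Ly6k for Ppara, and Gm16229 (0.85), Bean1 and Ptges3l for Ppard. They were Pkp4 (0.95), Dmrta2 and Blmh for Rxra and Mknk2 (0.77), Atg13 and Crebbp for Rxrb. For the RARs they were Flot1 (0.89), St6galnac6 and Trim26 for Rara, 1500005C15Rik (0.86), Cdh13 and Rab30 for Rarb, and Pof1b (0.94), Tmem184a and Ano9 for Rarg. Ap1m2 (0.97), Gm35028 and Ildr1 followed Crabp2. Ppara stood above 0.918 CPM only in C102-M3 and C102-M30 of BURP-25BaSq. Its rank correlations (rho) were lower, at 0.56 with Ppp2r2c, 0.25 with Hes2 and 0.47 with Ly6k.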

How the data were processed

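Total RNA of 24 tumors was depleted of ribosomal RNA and sequenced. According to the submitters' processing notes, CASAVA 1.8.2, STAR 2.6.0a, RSEM 1.3.1 and GRCm38 were used, and the authors deposited expected counts per gene, estimated from the reads and not normalized, of which 12.5% were not whole. Counts were rounded. Symbols and union exon lengths came from GENCODE M21 on GRCm38 (99.8% of identifiers matched without their version).

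Levels are CPM after TMM scaling. Each comparison used filterByExpr, estimateDisp, glmQLFit and glmQLFTest of edgeR 4.0.16 (R 4.3.3) on its own tumors, and a gene was called at a Benjamini-Hochberg adjusted p under 0.05. The test was checked on simulated counts. Alternatives were DESeq2 1.42.0 and its size factors, a minimum of 10 counts per tumor or no filter, a fold change above 2, all 24 tumors in 1 fit, lines or single tumors left out and, for the sexes, counts summed per line and voom of limma 3.58.1 with line as a random effect. Leaving out C102-M1, alone or with C102-M30, was added after seeing the data.

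The 9 genes and the 15 lists (234 genes) were chosen with earlier results of these data known. From a discussed list, up to 4 genes with the highest mean CPM among those called in its main direction were named, and the highest called in the other. Where both directions were equally frequent, which the rule does not settle, genes were picked after their values had been seen. Line comes from the sample labels, sex and class from the study, and no batch is given in the labels. Single genes that belong to some of these lists are not reported here.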

Additional observations from a re-analysis of the deposited data

Results flagged for a closer look

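Over 18 groups, made of the 9 genes in the 9 male and the 9 female Ba/Sq tumors, 2 had a highest tumor that stood further from the next than the critical value of Dixon's test allows. For independent, normally distributed values, chance gives about 1 in 20 groups. Tumors of a line are not independent, so that this rate need not hold here. In both flagged groups the highest tumor was C102-M3 of BURP-25BaSq, among the female tumors. Its Ppara level was 17.5 CPM, where the next tumor, C102-M30 of the same line, had 8.51 CPM. Its Rxra level was 180.1 CPM, where the next tumor, C102-M1, had 118.1 CPM.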

How the results depend on the processing

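Of the counts of genes called, 263 stayed within 1.5 times their value under the alternatives and 14 did not. At least 10 counts in every tumor leaves 5 of the 9 genes to test. It gave 2 in BURP-19NE (3830 genes called in all), 1 between BURP-16SR and BURP-19NE (4934) and 4 among the Ba/Sq lines (7308). It gave 2 in BURP-24BaSq (623) and 0 in BURP-25BaSq (12). The main fits called 7023, 6028, 10366, 534 and 59 genes in all, in that order. DESeq2 gave 3 in BURP-24BaSq (1500 genes called in all). For the sexes, 1 was called without BURP-12BaSq (Ppard), BURP-17BaSq (Crabp2) or BURP-25BaSq (Rxra). These fits called 1699, 2192 and 850 genes in all, against 979 in the main fit. With single tumors left out, the counts ran from 0 to 2 in BURP-24BaSq, from 0 to 1 in BURP-25BaSq, where 0 came without C102-M3, and from 0 to 1 for the sexes. All genes called in these fits ran from 91 to 698, from 9 to 364 and from 625 to 1210. In BURP-24BaSq, leaving out C102-M3 or C102-M30 gave 1 gene (Rarg) and leaving out C165-M30 gave 2 (Rarg and Rxra). The cause was not tested in any of these.

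Signs turned only for differences that were not called. Rara in BURP-19NE had log2 fold changes of -0.00815 with DESeq2's size factors, -0.00858 with DESeq2, -0.038 with at least 10 counts, -0.11, -0.013, -0.091 and -0.034 without the lines BURP-12BaSq, BURP-17BaSq, BURP-24BaSq and BURP-25BaSq, -0.00671 without C102-M1 and C102-M30, and -0.11 to 0.14 with single tumors left out. Rarb in BURP-19NE had -0.064, -0.086 and -0.11 without BURP-17BaSq, BURP-18BaSq and BURP-21BaSq, and -0.17 to 0.32 with single tumors left out, and Ppard had 0.083 without BURP-18BaSq. Pparg in BURP-16SR had 0.25 with all 24 tumors in 1 fit, 0.32 without BURP-25BaSq and -0.48 to 0.14 with single tumors left out, and Ppard in BURP-16SR had -0.037 to 0.51.

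Pparg in BURP-19NE also missed the threshold with no filter (adjusted p = 0.0648) and without BURP-12BaSq (0.0544), BURP-18BaSq (0.0661) or BURP-21BaSq (0.0563). Ppard in BURP-16SR passed without BURP-18BaSq (log2 fold change 0.62, adjusted p = 0.0348), Rarb passed between BURP-16SR and BURP-19NE with DESeq2 (0.0192), and Rara passed in BURP-18BaSq with DESeq2's size factors (0.0428), DESeq2 (0.0325) and at least 10 counts (0.038). With CT010467.1 and Gm26917 left out of the totals, line means rose 1.11 to 1.19 times. No paired analysis was possible because the replicate numbers were given in accession order and pair no tumors.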
